A study of Homo sapiens with 18 samples.

Results

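PC-3, a prostate cancer cell line, was given a brief pulse of fluid shear stress, and 10 keratin genes were followed in the cytosolic RNA that was sequenced afterwards. The genes were KRT4, KRT5, KRT7 and KRT8, which encode type II keratins, and KRT13, KRT15, KRT17, KRT18, KRT19 and KRT20, which encode type I keratins. They were found by NCBI Gene ID and are 10 of the 28395 genes in the count table. The 6 groups of 3 libraries were sheared cells at 3 h, static cells at 3 h, sheared cells at 12 h, static cells at 12 h, sheared cells at 24 h and static cells at 24 h. Sheared cells had been pushed through a syringe and fine needle, and static cells waited in suspension meanwhile. All 6 groups had been detached from the dish, kept in medium with insulin, transferrin, selenium and bovine serum albumin, and then held on a poly-HEMA coating that prevents attachment, so no attached cells were compared. Each pool of cells was split into 1 sheared and 1 static sample that carry its replicate number, which gives 9 pairs, 3 at each time. The 3 h libraries carried another batch date than the 12 h and 24 h libraries, so time and batch date cannot be told apart in any comparison with 3 h.

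Keratins are the intermediate filament proteins of epithelial cells. A type I and a type II keratin pair to form the filament, which resists stretch and deformation and is anchored to cell junctions. KRT8 and KRT18 are the primary pair of simple epithelia, joined by KRT7 and KRT19 in ducts and in many carcinomas. KRT5 marks the basal layer of stratified epithelia with KRT14, KRT15 is a basal keratin without a fixed partner, KRT4 and KRT13 pair in the upper layers of mucosa, and KRT20 marks gut epithelium, urothelial umbrella cells and Merkel cells. KRT17, with KRT16 and KRT6A, is switched on in wounded or stressed epidermis. In the normal prostate, luminal cells carry KRT8 and KRT18, and basal cells carry KRT5.

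KRT17 had the highest mean shear effect of the keratins. Because it resembles KRT16 and KRT14 closely, the sequences of these genes bear on how far their reads can be kept apart. KRT17 (Gene ID 3872) lies on the minus strand at chr17:41619441-41624842 (GRCh38, GENCODE 29). Its coding sequence was identical to that of KRT16 at 77.0% of aligned bases and to that of KRT14 at 82.4%. The lines below show a coding window of 60 bases in exon 1 of each gene, on the minus strand, from chr17:41624085-41624144 for KRT17, chr17:41612165-41612224 for KRT16 and chr17:41586317-41586376 for KRT14. They are shown because they separate KRT17 from KRT16 and KRT14, and capitals mark the bases that differ from KRT17. How far KRT16 and KRT14 can be kept apart from each other was not tested. Of the 60-base windows aligned without gaps within an exon, this one had the most differences, so it does not stand for the rest.
KRT17: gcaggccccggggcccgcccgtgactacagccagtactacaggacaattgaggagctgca
KRT16: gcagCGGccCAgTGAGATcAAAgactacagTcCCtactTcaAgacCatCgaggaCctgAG
KRT14: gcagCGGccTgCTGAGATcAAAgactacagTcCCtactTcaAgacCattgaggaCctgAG
In this window KRT16 differed from KRT17 at 24 positions and KRT14 at 23. Of all 100-base windows of the KRT17 transcript, 0.322% were identical to another transcript, a pseudogene (KRT17P3), and none to KRT16 or KRT14. KRT8 had the largest such share, 5.92%, all with KRT8 pseudogenes. The 8 keratin pseudogenes in the count table held 135 counts over all 18 libraries.

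Libraries held 16400487 to 25862360 counts, and the keratins together took 0.429% to 0.923% of them. Their levels are given as CPM, the count scaled to library size with TMM factors. Where treatments are compared, rose and fell mean higher and lower in sheared than in static cells at the same time. KRT5 had 28 counts over the 18 libraries, between 0 and 5 in each, and was too low to test, so 9 of the 10 keratins were tested. The epithelial markers EPCAM, between 279 and 734 CPM, and CDH1, between 180.1 and 365 CPM, were present in every library. The mesenchymal filament gene VIM was present in every library too, between 48.8 and 734 CPM. The sheared 24 h replicate 3 library stood apart, with a TMM factor of 0.721 against 0.888 to 1.11 in the other libraries, and 24 h values that moved when its pair was left out are also given without it.

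Per kilobase of transcript, KRT7 was the most abundant of the 10 keratins at 3 h and KRT19 at 12 h and 24 h. At 3 h KRT7 reached 901 ± 73.0 CPM per kb in sheared cells and 813 ± 105 in static cells (SD, n = 3 each), followed by KRT8, KRT18 and KRT19 at 599 to 662 CPM per kb in sheared cells and 543 to 560 in static cells. These 3 did not differ in order beyond their spread in static cells. At 24 h KRT19 reached 2532 ± 494 CPM per kb in sheared cells and 3105 ± 626 in static cells, with KRT8 next at 947 ± 339 in sheared cells and 800.2 ± 223 in static cells. The upper 4 places were held in all 6 groups by KRT7, KRT8, KRT18 and KRT19, the simple-epithelial keratins. KRT15, KRT17, KRT4, KRT20 and KRT13 followed at 95.4 CPM per kb or less in every group mean, and KRT5 was at most 0.0507. The KRT15 level depends on the length used, 5237 bases of transcript with 1368 coding bases. Per kilobase of coding sequence KRT15 had 365 CPM in static 24 h cells, against 702 for KRT7 and 711 for KRT18. By that measure it also ranked above KRT17 in sheared 12 h and 24 h cells. The hair keratin gene KRT81, outside the 10 genes, had 2095 ± 243 CPM per kb in sheared and 1900 ± 113 in static 3 h cells, above KRT7. At 12 h KRT81 had 2126 ± 143 in sheared and 1097 ± 247 in static cells, and at 24 h 4017 ± 1958 in sheared and 1611 ± 760.1 in static cells.

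**Figure D1:**
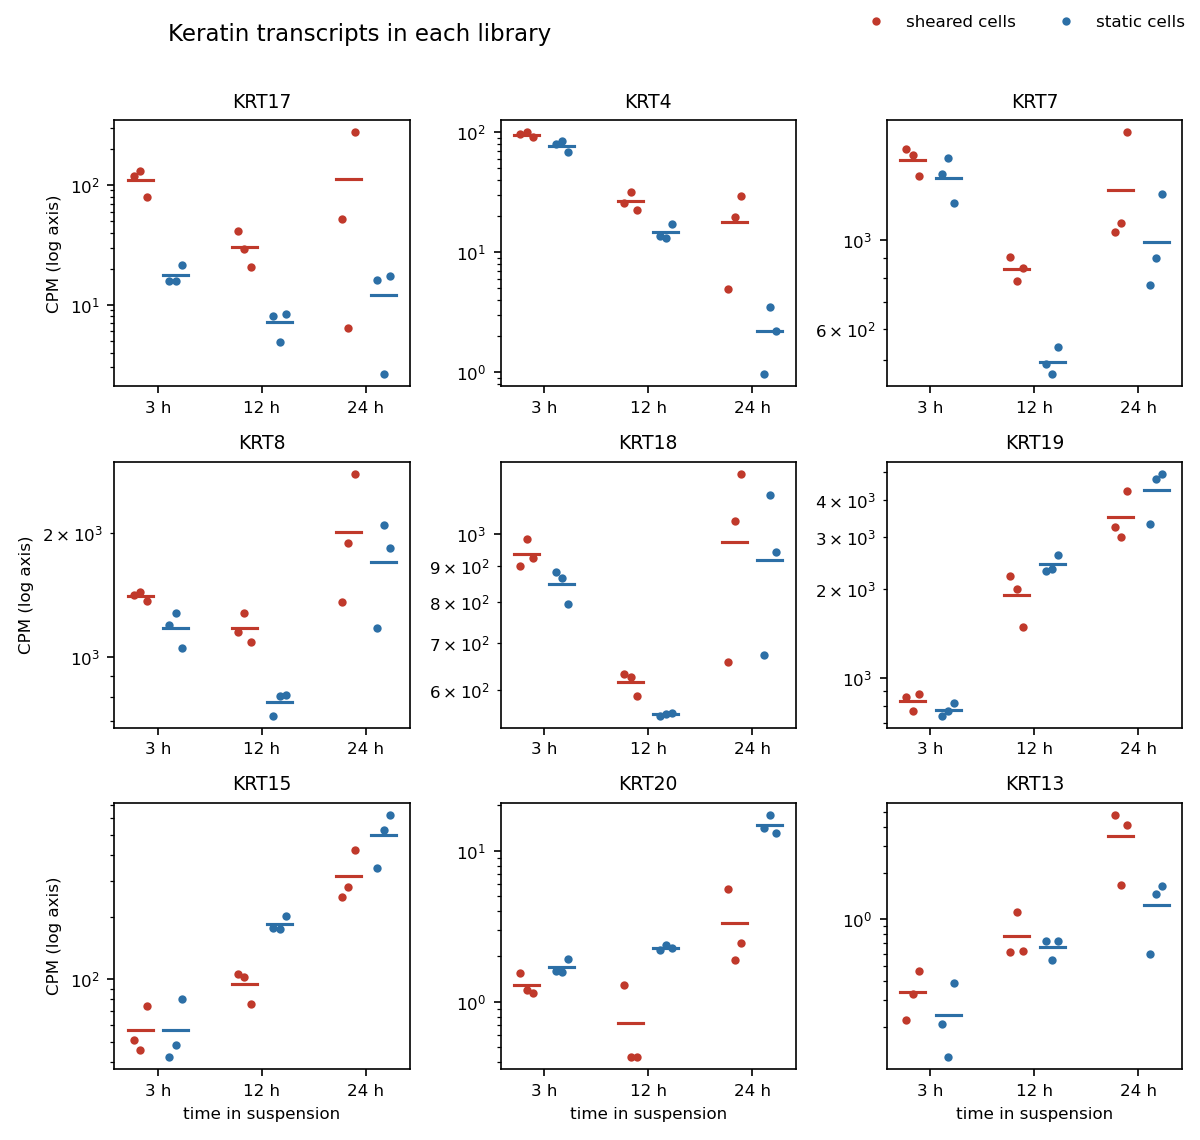
Level of each tested keratin in every library (CPM, log axis) at 3 h, 12 h and 24 h in suspension; red points are sheared and blue points static libraries, and bars are means of 3. KRT17 and KRT4 lay higher and KRT20 lower in the sheared library of all 9 pairs, while KRT19 and KRT15 climbed with time in both treatments.

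KRT17 lay higher in the sheared library of all 9 pairs. At 3 h it had 119, 131 and 79.5 CPM in sheared cells, against 15.9, 15.8 and 21.5 CPM in static cells. At 12 h the values were 40.9, 29.2 and 20.8 CPM in sheared cells and 8.06, 4.88 and 8.43 CPM in static cells. At 24 h they were 52.5, 6.44 and 275 CPM in sheared cells and 16.2, 2.63 and 17.4 CPM in static cells. The groups were apart at 3 h and 12 h and overlapped at 24 h, where replicate 2 was low and replicate 3 of the sheared cells high. Averaged over the times, KRT17 rose by 2.40 ± 0.32 on the log2 scale (SE, adjusted p = 0.00197, edgeR), a 5.27-fold difference.

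By time, the log2 fold change of KRT17 was 2.61 ± 0.52 at 3 h (edgeR adjusted p = 0.0830), 2.07 ± 0.55 at 12 h (0.0582) and 2.52 ± 0.59 at 24 h (0.0294), so by time it passed the threshold of 0.05 at 24 h alone. The calls by time changed with the libraries in the fit. Without the 24 h replicate 3 pair the adjusted p was 0.000351 at 3 h and 0.00112 at 12 h, and the 24 h value was 1.58 (0.0254). Without the 24 h replicate 1 pair the 12 h adjusted p was 0.0435, and without the 12 h replicate 1 pair the 24 h call was lost (0.0540). DESeq2 called KRT17 at all 3 times, with adjusted p-values of 0.000166, 0.00265 and 0.000360. Without the pairing the adjusted p was 0.602 at 3 h, 0.280 at 12 h and 0.0632 at 24 h, with a 24 h value of 3.20. In the libraries of 1 time alone KRT17 was not called at 3 h, and its adjusted p was 7.98e-07 at 12 h and 0.0711 at 24 h. In the authors' deposited table KRT17 had log2 fold changes of 2.77, 2.23 and 3.02, with adjusted p-values of 0.106, 0.112 and 0.00920.

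KRT4, a mucosal type II keratin (Gene ID 3851, chr12:52806549-52814551, minus strand), was higher in sheared than in static cells at 12 h and 24 h, and its level fell with time in static cells. At 3 h it had 96.0, 99.9 and 91.4 CPM in sheared cells, against 79.5, 84.7 and 68.1 CPM in static cells. At 12 h it had 25.6, 31.9 and 22.5 CPM in sheared cells, against 13.6, 13.2 and 17.2 CPM in static cells. The 24 h values were 4.89, 19.5 and 29.4 CPM in sheared cells, against 0.958, 3.51 and 2.20 CPM in static cells. The sheared libraries lay above all static libraries at each time. The log2 fold change was 0.31 ± 0.17 at 3 h (edgeR adjusted p = 0.670), 0.85 ± 0.19 at 12 h (0.00858) and 2.95 ± 0.24 at 24 h (1.40e-06). The last, a 7.71-fold difference, stayed called without any single pair and was 2.45 on the log2 scale without the 24 h replicate 3 pair. The shear effect at 24 h exceeded that at 12 h by 2.09 ± 0.31 (0.00469) and that at 3 h by 2.64 ± 0.30 (3.29e-05). The 12 h call was lost without the 12 h replicate 1 pair (0.0679), without the 12 h replicate 2 pair (0.151) and without the pairing (0.291), and the difference between 24 h and 12 h was lost without the pairing (0.667).

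KRT20 moved the other way. This keratin of gut and urothelial lining (Gene ID 54474, chr17:40875941-40885227, minus strand) lay lower in the sheared library of all 9 pairs, at low counts of 9 to 296. At 3 h it had 1.56, 1.19 and 1.15 CPM in sheared cells, against 1.60, 1.58 and 1.92 CPM in static cells. At 12 h it had 1.29, 0.434 and 0.432 CPM in sheared cells, against 2.22, 2.37 and 2.26 CPM in static cells. The 24 h values were 5.57, 1.91 and 2.46 CPM in sheared cells, against 14.1, 17.3 and 13.2 CPM in static cells. The groups did not overlap at any time, but at 3 h they were barely apart. The highest sheared library there had 1.56 CPM and the lowest static one 1.58 CPM. The log2 fold change was -0.39 ± 0.36 at 3 h (edgeR adjusted p = 0.857), -1.75 ± 0.40 at 12 h (0.0105) and -2.26 ± 0.32 at 24 h (0.000143). The effect at 24 h was lower than that at 3 h by a difference of -1.88 ± 0.48 (0.0277, and 0.0905 without the pairing). The 12 h call was lost without the 12 h replicate 2 pair (0.151) or replicate 3 pair (0.0723). In bulk RNA, fewer cells with a transcript and less of it per cell cannot be told apart, for KRT20 as for the other keratins.

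KRT4 had the highest and KRT20 the lowest shear effect of the 9 tested keratins at 24 h, and their promoters were in the reference table used, with those of KRT5 and KRT8 (4 of 10 keratins). Each runs from 250 bases before to 50 after the transcript start and comes from RefSeq on GRCh38.p14, minus strand, at chr12:52814067-52814366 for KRT4 and chr17:40885193-40885492 for KRT20. Capitals mark a match to CCAAT.
KRT4: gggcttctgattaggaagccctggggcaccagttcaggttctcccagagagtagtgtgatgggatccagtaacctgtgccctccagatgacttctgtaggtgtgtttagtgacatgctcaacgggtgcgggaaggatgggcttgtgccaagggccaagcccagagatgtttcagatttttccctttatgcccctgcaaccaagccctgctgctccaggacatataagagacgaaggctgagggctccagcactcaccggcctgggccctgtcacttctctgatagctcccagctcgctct
KRT20: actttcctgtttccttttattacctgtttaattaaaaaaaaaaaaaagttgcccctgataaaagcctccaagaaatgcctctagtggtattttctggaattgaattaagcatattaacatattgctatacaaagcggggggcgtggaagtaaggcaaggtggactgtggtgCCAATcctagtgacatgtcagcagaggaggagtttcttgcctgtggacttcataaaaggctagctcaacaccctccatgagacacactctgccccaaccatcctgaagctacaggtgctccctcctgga
Motifs were searched as 4 strings of letters on both strands. The CAAT box, written CCAAT, occurred once in the KRT20 promoter, with its first base at position -79 from the start, and is present in 34.6% of 35116 promoters of this length. The TATA box, written TATAAA, is present in 11.5% of them and this exact string was not found in either promoter. Other forms of the TATA box were not searched, so this does not show that either promoter lacks one. The AP-1 motif, written TGANTCA, is present in 7.71% of promoters and was found in neither. The GC box, written GGGCGG, is present in 45.0% and was likewise found in neither, so there was no overlap between motifs. A match here is a string of letters and not a measured binding site.

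Both simple-epithelial type II keratins, KRT7 and KRT8, were higher in sheared than in static cells at 12 h. KRT7, the ductal type II keratin, had 903, 789 and 849 CPM in sheared 12 h cells, against 489, 462 and 539 CPM in static 12 h cells. The 24 h levels were 1043, 1098 and 1850 CPM in sheared cells, against 770, 897 and 1297 CPM in static cells. The groups were apart at 12 h and overlapped at 24 h, and KRT7 was higher in the sheared library of 9 of 9 pairs. Its log2 fold change was 0.15 ± 0.10 at 3 h (edgeR adjusted p = 0.762), 0.77 ± 0.11 at 12 h (0.000257) and 0.41 ± 0.10 at 24 h (0.0116). The effect at 12 h exceeded that at 3 h by 0.62 ± 0.15 (0.0451). Without the pairing the calls at 12 h (0.0544) and 24 h (0.233) were lost, as was that at 24 h without the 24 h replicate 1 pair (0.0521) or in the 24 h libraries alone (0.101).

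KRT8, the obligate type II keratin of simple epithelia, had 1153, 1280 and 1088 CPM in sheared 12 h cells, against 721, 806 and 807 CPM in static 12 h cells. The 12 h groups did not overlap, and the log2 fold change of 0.59 ± 0.13 passed the threshold (edgeR adjusted p = 0.00690). This call was lost without the 12 h replicate 1 pair (0.0722), the 12 h replicate 2 pair (0.0787) or the pairing (0.156). At 3 h KRT8 had 1416, 1438 and 1366 CPM in sheared cells, against 1195, 1280 and 1053 CPM in static cells, groups that were apart, with a difference of 0.26 ± 0.13 (0.559, but 0.00227 in the 3 h libraries alone, where KRT4 had 0.00256). At 24 h it had 1361, 1892 and 2786 CPM in sheared cells, against 1175, 2094 and 1835 CPM in static cells, with overlapping groups and a difference of 0.22 ± 0.13 (0.245, but 0.0453 without the 24 h replicate 2 pair, and 0.051 with 0.854 without the 24 h replicate 3 pair). The mean over the times, 0.36 ± 0.07, had an adjusted p of 0.00188, and of 0.0567 without the pairing (edgeR).

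KRT18, the type I partner of KRT8, did not pass the threshold at any time. At 12 h it had 632, 625 and 588 CPM in sheared cells, against 551, 554 and 556 CPM in static cells. These groups were apart but close, with log2 fold changes of 0.14 ± 0.11 at 3 h (edgeR adjusted p = 0.816), 0.15 ± 0.11 at 12 h (0.421) and 0.07 ± 0.11 at 24 h (0.716). KRT8 (chr12:52897187-52949954, minus strand) and KRT18 (chr12:52948871-52952901, plus strand) overlap in GENCODE 29. Whether counting used strand is not given in the sources used here, so reads of the shared stretch cannot be told apart.

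Among the type I keratins, KRT15 was lower in sheared than in static cells at 12 h and 24 h, although its level climbed with time in both treatments. KRT15, the basal keratin, had 106, 103 and 75.6 CPM in sheared 12 h cells, against 176, 175 and 203 CPM in static 12 h cells. At 24 h it had 249, 279 and 420.3 CPM in sheared cells, against 347, 528 and 624 CPM in static cells. The groups were apart at 12 h and overlapped at 24 h, and the sheared library was the lower in 8 of 9 pairs. KRT15 was lower in sheared cells by 0.98 ± 0.14 on the log2 scale at 12 h (edgeR adjusted p = 0.000353) and by 0.66 ± 0.14 at 24 h (0.00304). Its log2 fold change at 3 h was 0.03 ± 0.14 (0.979). Its shear effect was lower at 12 h than at 3 h by a difference of -1.01 ± 0.19 (0.0137) and lower at 24 h than at 3 h by -0.69 ± 0.19 (0.0431). Without the pairing the adjusted p was 0.0564 at 12 h and 0.144 at 24 h.

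KRT19, a keratin without the usual tail domain and the most abundant of the list at 12 h and 24 h, did not pass the threshold. At 12 h it had 2219, 1994 and 1491 CPM in sheared cells, against 2307, 2344 and 2615 CPM in static cells. At 24 h it had 3253, 3007 and 4299 CPM in sheared cells, against 3319, 4707 and 4921 CPM in static cells. The groups were apart at 12 h and overlapped at 24 h. The sheared library was the lower in all 6 pairs of these times and the higher in the 3 pairs of 3 h. The log2 fold changes were 0.10 ± 0.14 at 3 h (edgeR adjusted p = 0.918), -0.37 ± 0.14 at 12 h (0.109) and -0.29 ± 0.14 at 24 h (0.171).

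KRT13, the mucosal partner of KRT4, was at 3 to 70 counts in a library. At 24 h it had 4.76, 1.67 and 4.07 CPM in sheared cells, against 0.599, 1.46 and 1.64 CPM in static cells. The lowest sheared library lay just above the highest static one, and the log2 fold change of 1.44 ± 0.46 passed the threshold narrowly (edgeR adjusted p = 0.0396). It was 0.78 (0.317) without the 24 h replicate 1 pair, and the call was also lost without the 24 h replicate 3 pair (0.111), without the 12 h replicate 1 pair (0.0524), in the 24 h libraries alone (0.111) and without the pairing (0.0553). Both mucosal keratins, KRT4 and KRT13, thus had more transcript in sheared than in static cells at 24 h, but static levels of KRT4 fell with time and those of KRT13 did not.

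**Figure D2:**
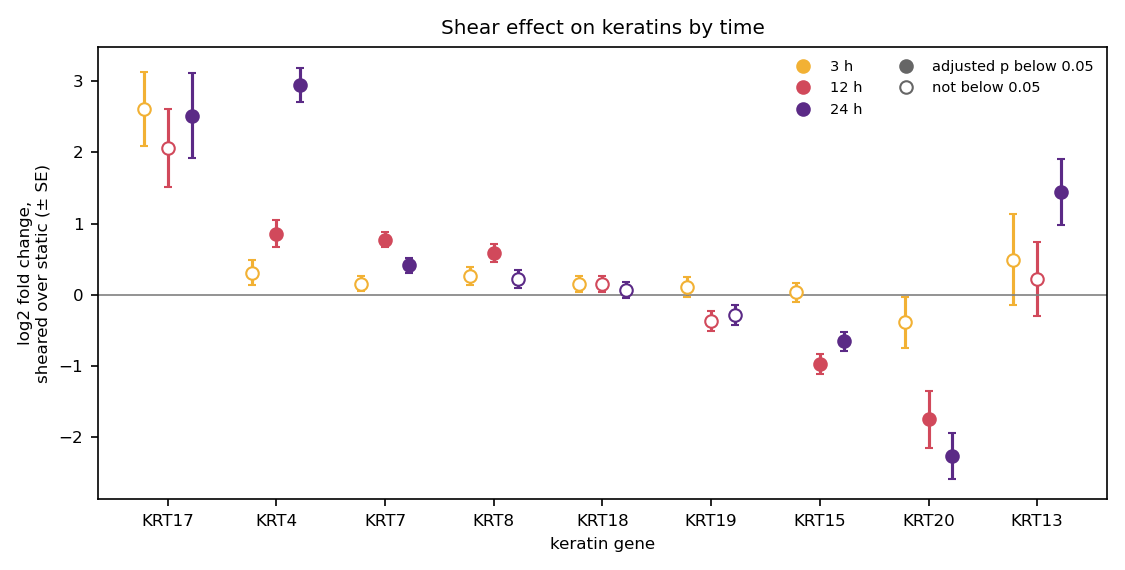
Log2 fold change of each tested keratin, sheared over static cells, at 3 h, 12 h and 24 h (edgeR, error bars are SE); filled points have an adjusted p below 0.05. No keratin is filled at 3 h, 5 are at 12 h and 6 at 24 h, with KRT4 highest and KRT20 lowest at 24 h.

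Counted together, none of the 9 tested keratins was called at 3 h, where 1.46% of all 15189 tested genes were (1.12% higher and 0.342% lower). At 12 h, 3 rose (KRT4, KRT7 and KRT8) and 2 fell (KRT15 and KRT20), where 10.8% of all tested genes were called, 6.29% higher and 4.55% lower. At 24 h, 4 rose (KRT4, KRT7, KRT13 and KRT17) and 2 fell (KRT15 and KRT20), where 17.2% were called, 9.13% higher and 8.07% lower. At 3 h, 1 keratin had an unadjusted p under 0.05, KRT17 at 0.00149, and DESeq2 called 1 keratin, KRT17. The median log2 fold change of the keratins was 0.15, 0.22 and 0.22 at 3 h, 12 h and 24 h, beside 0.01, -0.01 and -0.02 over all genes. Averaged over the times, 4 rose (KRT4, KRT7, KRT8 and KRT17) and 2 fell (KRT15 and KRT20), where 25.7% of all genes were called, 14.3% higher and 11.4% lower.

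The difference in shear effect between times was called for some of the tested keratins. Between 12 h and 3 h the effect of KRT7 was higher and that of KRT15 lower, where 1.41% of all genes were called, 0.514% higher and 0.895% lower. Between 24 h and 12 h the effect of KRT4 was higher, where 0.665% were called, 0.586% higher and 0.0790% lower. Between 24 h and 3 h the effect of KRT4 was higher and those of KRT15 and KRT20 lower, where 5.89% were called, 3.08% higher and 2.81% lower. These comparisons share libraries, and the counts depend on the pairing: without it 1 keratin was called at 12 h and 2 at 24 h. In the authors' deposited tables, 1 keratin was higher and 2 lower at 12 h, and 3 were higher and 2 lower at 24 h.

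At 12 h KRT7 and KRT8 of type II were higher and KRT15 of type I was lower in sheared than in static cells. The balance of the 2 types among the 10 keratins was therefore described from their summed levels per kilobase. At 3 h the ratio of type II to type I transcript was 1.25 ± 0.0750 in sheared cells and 1.24 ± 0.148 in static cells (SD, n = 3 each). At 12 h it was 0.590 ± 0.0816 in sheared cells, between 0.521 and 0.680, against 0.306 ± 0.00439 in static cells, between 0.304 and 0.311. At 24 h it was 0.513 ± 0.0720 in sheared cells, between 0.434 and 0.576, against 0.357 ± 0.0165 in static cells, between 0.342 and 0.374. The sheared and static libraries were thus apart at 12 h and 24 h and mixed at 3 h. Other keratin genes, above all KRT81, are left out of these sums. Over 26 type II and 28 type I genes, a sum chosen after seeing the data, the ratio was 2.83 ± 0.241 in sheared and 2.90 ± 0.249 in static cells at 3 h. It was 1.77 ± 0.355 in sheared and 0.811 ± 0.0836 in static cells at 12 h, and 1.64 ± 0.347 in sheared and 0.776 ± 0.183 in static cells at 24 h. The level of the ratio therefore depends on the genes summed, while sheared and static libraries were apart at 12 h and 24 h and mixed at 3 h over either set. KRT8 alone over KRT18 gave 1.40 ± 0.0894 in sheared and 1.03 ± 0.0610 in static cells at 12 h, and 1.51 ± 0.172 in sheared and 1.36 ± 0.0737 in static cells at 24 h. For this ratio the 24 h groups overlapped, between 1.33 and 1.68 in sheared and between 1.28 and 1.43 in static cells. KRT19 made up 75.7% of the type I sum in sheared 12 h cells and 81.5% in static 12 h cells. KRT15 made up only 1.00% of it in sheared and 1.65% in static 12 h cells. These sums are descriptions of transcript, and protein was not measured.

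**Figure D3:**
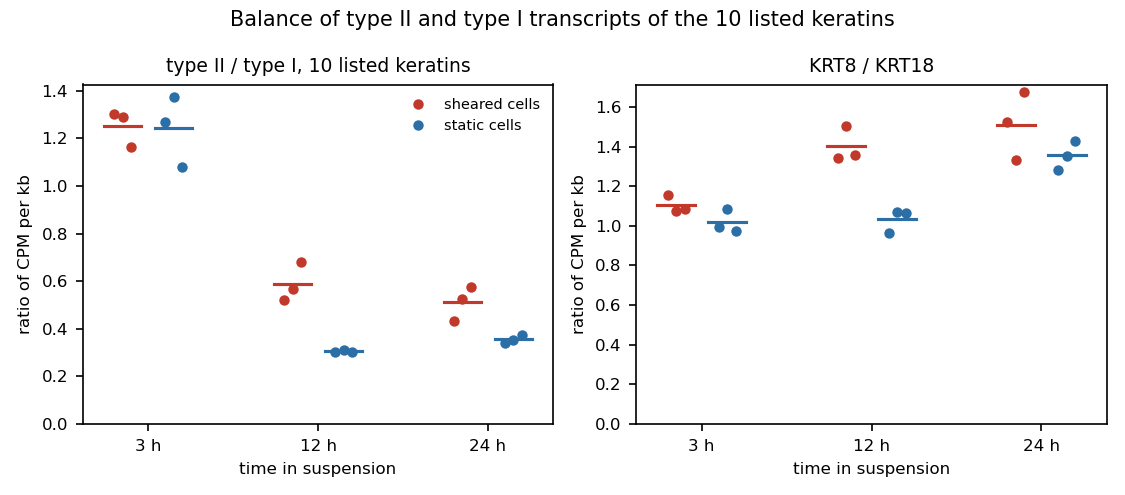
Ratio of summed type II to type I levels of the 10 listed keratins, without KRT81 and other keratin genes (left), and of KRT8 to KRT18 (right) in each library, both from CPM per kb of transcript; red is sheared, blue is static, bars are means of 3. The type ratio lies between 0.521 and 0.680 in sheared 12 h cells, above 0.304 to 0.311 in static 12 h cells, and both lie below the 3 h values.

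In static suspension most keratins changed with time. Between 24 h and 12 h, which share a batch date, 6 of 9 keratins rose and 1 fell, where 32.5% of all 14804 tested genes were called, 16.9% higher and 15.6% lower. KRT20 had 14.9 ± 2.15 CPM at 24 h and 2.28 ± 0.0745 CPM at 12 h (SD, n = 3 each), a log2 fold change of 2.69 ± 0.20 (edgeR adjusted p = 6.92e-07). KRT15 rose by 1.43 ± 0.24 (0.000752), KRT8 by 1.12 ± 0.17 (0.000134), KRT7 by 0.98 ± 0.17 (0.000371), KRT19 by 0.82 ± 0.14 (0.000414) and KRT18 by 0.72 ± 0.15 (0.00194). KRT4 was the keratin that fell, to 2.22 ± 1.27 CPM at 24 h, against 14.7 ± 2.22 CPM at 12 h, a log2 fold change of -2.73 ± 0.27 (5.00e-06). These 7 calls held without any single static library. KRT17 (0.76 ± 0.59, 0.370) and KRT13 (0.89 ± 0.47, 0.157) did not pass, although KRT17 did without the static 24 h replicate 2 library (1.22, 0.00136), which held 2.63 CPM against 16.2 and 17.4 CPM in the others.

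The 12 h and 3 h static cells differ in batch date as well as time, and 3 keratins were higher and 4 lower at 12 h, where 44.7% of all genes were called, 21.7% higher and 22.9% lower. KRT19 was higher at 12 h by 1.63 ± 0.14 on the log2 scale (edgeR adjusted p = 1.76e-07), KRT15 by 1.70 ± 0.24 (9.17e-05) and KRT13 by 1.43 ± 0.56 (0.0453). KRT4 was lower by a log2 fold change of -2.40 ± 0.23 (8.25e-07), KRT7 by -1.53 ± 0.17 (1.95e-06), KRT18 by -0.62 ± 0.15 (0.00310) and KRT8 by -0.60 ± 0.17 (0.00744). KRT7, KRT8 and KRT18 were therefore lowest at 12 h of the 3 times, whereas KRT19 and KRT15 were highest at 24 h and KRT4 at 3 h. Between 24 h and 3 h, 5 keratins were higher and 2 lower (59.0% of all genes called, 29.7% higher and 29.3% lower), from 3.12 ± 0.25 for KRT15 to -5.13 ± 0.28 for KRT4 on the log2 scale. KRT13's call between 12 h and 3 h was lost without any of 6 of the 9 static libraries, with adjusted p-values up to 0.159.

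**Figure D4:**
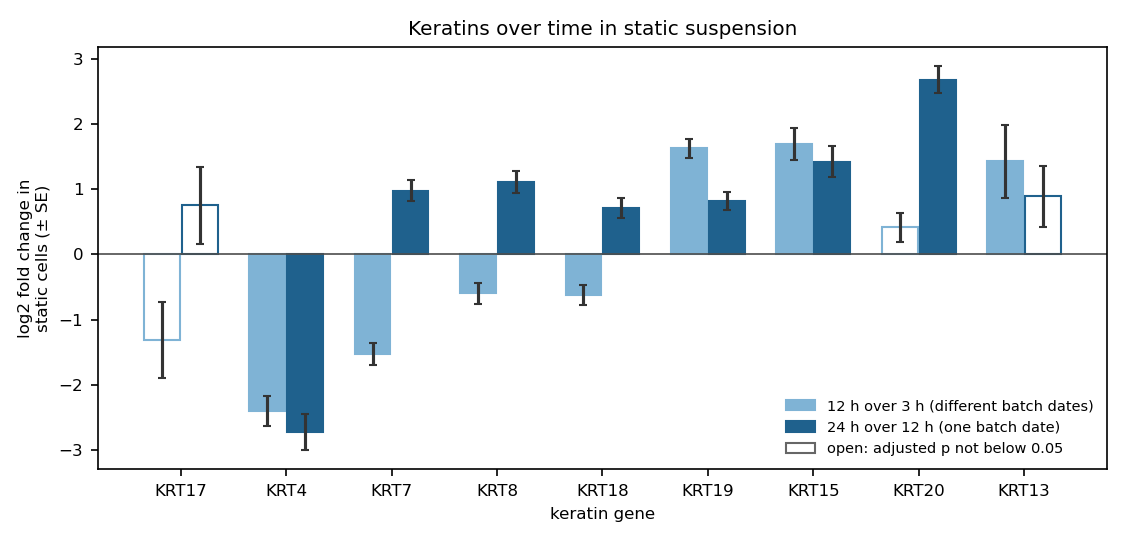
Log2 fold change of each tested keratin between times in static cells, 12 h over 3 h (light) and 24 h over 12 h (dark), with SE; open bars have an adjusted p of 0.05 or more. KRT4 fell in both steps, KRT19 and KRT15 rose in both, and KRT7, KRT8 and KRT18 were lower at 12 h and higher again at 24 h.

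The levels of KRT4 and KRT20 can be set side by side over the groups. KRT4 averaged 17.9 ± 12.3 CPM in sheared 24 h cells, 2.22 ± 1.27 CPM in static 24 h cells and 14.7 ± 2.22 CPM in static 12 h cells (SD, n = 3 each). KRT20 averaged 3.31 ± 1.98 CPM in sheared 24 h cells, 14.9 ± 2.15 CPM in static 24 h cells and 2.28 ± 0.0745 CPM in static 12 h cells. The comparison with shear and that with time share the static 24 h libraries, so their signs are not independent.

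Over the 18 libraries, log2 CPM of KRT8 and KRT18 rose and fell together (Pearson r = 0.875). Among 12414 genes, KRT18 ranked 26th in likeness to KRT8, and KRT8 ranked 21st in likeness to KRT18. The genes most like KRT8 were PPP2R1A (r = 0.946), HSF1 (0.930) and SBNO2 (0.921), and the gene most like KRT18 was UPK3B (0.947). KRT15 and KRT19 had r = 0.961, and KRT19 ranked 17th for KRT15 behind TAPBP (0.983), TNFRSF1A (0.979) and GBP2 (0.979). KRT4 ran against KRT15 (r = -0.846), KRT19 (-0.842) and KRT20 (-0.790), and the genes most like it were SSRP1 (0.982), CENPN (0.978) and CMSS1 (0.977). KRT7 was most like NANS (0.967), and KRT20 was most like SQLE (0.925). The libraries share the differences between times, batch dates and treatments, so these values describe common patterns over the 6 groups and not independent points.

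The other keratin genes were counted from lists of 22 type II and 22 type I genes. Of the 9 other type II genes tested, 6 rose at 12 h and 0 fell, and 6 rose and 1 fell at 24 h, where 10.8% of all genes were called at 12 h (6.29% higher, 4.55% lower) and 17.2% at 24 h (9.13% higher, 8.07% lower). The hair keratin gene KRT81 was the most abundant of these, with 3792, 4185 and 4324 CPM in sheared 12 h cells and 2082, 1656 and 2609 CPM in static 12 h cells. Its groups did not overlap at 12 h, and it rose by 0.98 ± 0.12 at 12 h (edgeR adjusted p = 8.59e-05) and by 1.31 ± 0.12 at 24 h (2.44e-06). KRT6A, a wound keratin of epidermis, rose by 1.74 ± 0.34 at 12 h (0.00594) and 1.87 ± 0.33 at 24 h (0.00169). Without the 24 h replicate 3 pair the 24 h values were 1.32 (1.60e-06) for KRT81 and 1.43 (0.0107) for KRT6A. The hair keratin genes KRT83, KRT85 and KRT86 and the epithelial KRT80 also rose at both times, by 0.56 to 1.68, while KRT75 fell by 1.00 ± 0.21 at 24 h (0.00323). All 6 risen genes are named, more than the 4 of the naming rule, and the others were chosen after their values were seen. KRT81, KRT83, KRT85 and KRT86 are close relatives, so reads may be split between them.

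Of the 7 other type I genes tested, 0 rose and 1 fell at 12 h (KRT32), and 1 rose and 0 fell at 24 h (KRT14), against the same shares of all genes, 10.8% at 12 h and 17.2% at 24 h. KRT16, which is co-expressed with KRT17 in stressed epidermis, had 37.6, 44.8 and 22.0 CPM in sheared 3 h cells, against 8.51, 7.90 and 11.2 CPM in static 3 h cells. These groups were apart, but the log2 fold change of 1.87 ± 0.45 did not pass (edgeR adjusted p = 0.141), nor did 1.30 ± 0.44 at 24 h (0.0831), while the mean over the times did (1.28 ± 0.26, 0.00935). KRT14, the basal partner of KRT5, had 2.79, 0.298 and 5.75 CPM in sheared 24 h cells, against 0.599, 0.0584 and 0.665 CPM in static 24 h cells, from 1 to 75 counts. The replicate 2 libraries were low in both treatments, and the log2 fold change was 2.65 ± 0.49 (0.00134). Without the 24 h replicate 3 pair it was 2.24 and not called (edgeR adjusted p = 0.0565), and KRT16 had 0.98 (0.379). Replicate 2 at 24 h was also the low library of KRT17, KRT16 and KRT6A in both treatments. None of the other type I or type II keratin genes was called at 3 h.

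**Figure D5:**
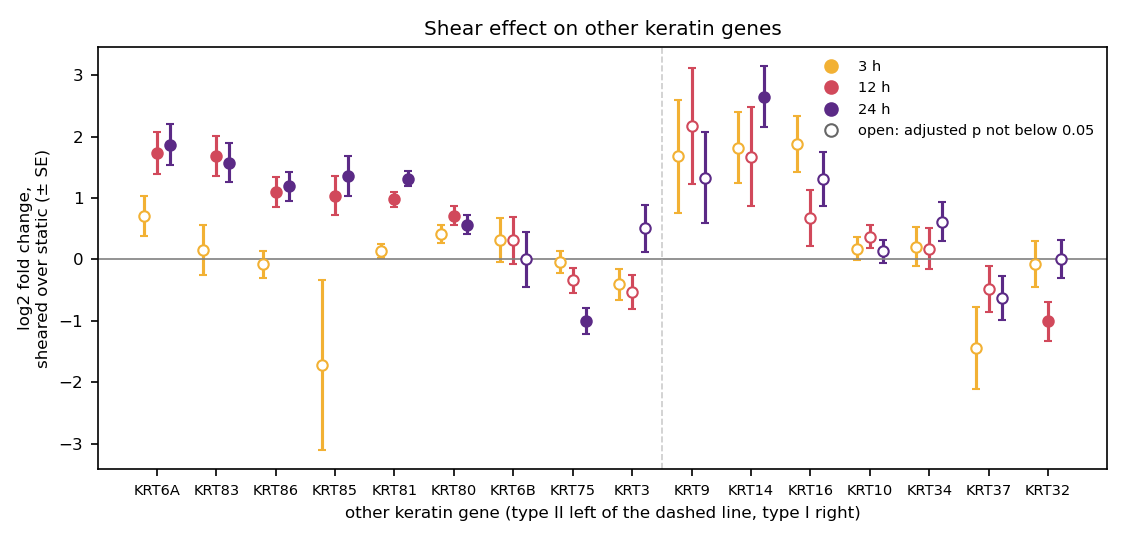
Log2 fold change, sheared over static cells, of the other keratin genes that could be tested, at 3 h, 12 h and 24 h (edgeR, SE); type II genes stand left of the dashed line and type I genes right of it, and filled points have an adjusted p below 0.05. Of 9 type II genes 6 rose at both later times, among them KRT81 and KRT6A, and of 7 type I genes 1 fell at 12 h and 1 rose at 24 h.

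Genes for other filaments, for keratin anchorage and for keratin binding were counted next, where 1.46%, 10.8% and 17.2% of all genes were called at 3 h, 12 h and 24 h. Of 9 tested intermediate filament genes outside the keratins, 1 rose at 12 h, the neurofilament gene NEFL (0.41 ± 0.11, edgeR adjusted p = 0.0234). At 24 h the lamin genes LMNB1 (0.92 ± 0.13, 7.96e-05) and LMNB2 (0.67 ± 0.11, 0.000360) rose, and the nestin gene NES fell by 0.44 ± 0.11 (0.0132). Of 21 tested genes of desmosomes and hemidesmosomes, which anchor keratin filaments, DSC2 fell at 12 h (-0.49 ± 0.12, 0.0140) and PKP4 (0.60 ± 0.15, 0.00995) and PKP1 (0.51 ± 0.14, 0.0152) rose at 24 h. Of 15 tested genes of keratin binding, turnover and modification, 1 rose at 3 h, 3 rose and 1 fell at 12 h, and 1 rose and 1 fell at 24 h. TRIM29, a tripartite-motif protein of basal epithelia, rose by 1.10 ± 0.12 at 3 h (4.72e-05) and by 1.19 ± 0.12 at 12 h (1.35e-05), and the transglutaminase gene TGM2 rose by 0.66 ± 0.11 at 12 h (0.00150) and 0.76 ± 0.11 at 24 h (0.000197).

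Of 19 tested epithelial transcription factor genes tied to keratins, 3 rose and 0 fell at 3 h, the time at which no keratin was called, where 1.12% of all genes were higher and 0.342% lower. These were KLF4 at 137 CPM in sheared and 47.6 CPM in static cells (1.55 ± 0.12, edgeR adjusted p = 9.53e-07), ETS2 (1.70 ± 0.16, 1.17e-05) and KLF5 (0.77 ± 0.13, 0.00216). KLF4 drives barrier formation in epidermis, and KLF5 acts in the basal layer of epithelia. At 12 h, where 10.8% of all genes were called, KLF5 and OVOL2 rose and VDR and GRHL2 fell. At 24 h, where 17.2% were called, KLF5 rose and VDR, FOXA1 and GRHL2 fell, VDR by 1.06 ± 0.16 (0.000214) and FOXA1, a luminal factor, by 0.81 ± 0.15 (0.00101). Of 10 tested genes of stratified differentiation, 1 rose at 3 h (EMP1), 1 fell at 12 h (S100A9), and 3 rose and 2 fell at 24 h.

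Markers that moved with the treatment were set beside the keratins. Of 15 simple-epithelium genes, 3 fell at 12 h and 3 at 24 h and none rose, where 4.55% of all genes fell at 12 h and 8.07% at 24 h. The cadherin gene CDH1 fell at both times, by 0.51 ± 0.11 at 12 h (edgeR adjusted p = 0.00709) and 0.49 ± 0.11 at 24 h (0.00577). The summed level of the 15 genes ranged from 2968 to 3227 CPM in sheared and 2787 to 2868 CPM in static 3 h cells. At 12 h it ranged from 2877 to 3158 CPM in sheared and 3201 to 3489 CPM in static cells. At 24 h it ranged from 4255 to 5869 CPM in sheared and 4258 to 6606 CPM in static cells. The sheared libraries thus lay above the static ones at 3 h and below them at 12 h, and the groups overlapped at 24 h. Of 9 tested prostate basal genes, TRIM29 rose at 3 h and 12 h, and of 6 tested androgen-dependent genes 1 fell at 12 h and 3 at 24 h. Of 4 tested haematopoietic genes none was called, where 1.46%, 10.8% and 17.2% of all genes were called at 3 h, 12 h and 24 h. Of 7 tested fibroblast and endothelial genes 1 rose at 3 h, 2 fell at 12 h and 1 fell at 24 h. Their summed levels at 3 h were 47.3 to 49.1 CPM in sheared and 30.7 to 38.5 CPM in static cells, and at 12 h 65.4 to 81.9 CPM in sheared and 108 to 120.3 CPM in static cells.

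The nuclear-retained RNA MALAT1, a sign of nuclear carry-over into the cytosol, had 14.4 to 15.1 CPM in sheared and 23.9 to 29.5 CPM in static 3 h cells, and 7.15 to 68.4 CPM in sheared and 10.8 to 24.7 CPM in static 24 h cells. At 12 h it had 29.4 to 39.2 CPM in sheared and 35.4 to 38.9 CPM in static cells. None of 3 tested nuclear-retained RNAs was called between sheared and static cells at 3 h, 12 h or 24 h. In static cells they did change with time. Between 24 h and 12 h 2 were lower, where 15.6% of all genes were. Between 12 h and 3 h 1 was higher (21.7% of all genes). Between 24 h and 3 h 1 was higher and 2 lower (29.7% and 29.3%). The shear effect of 1 was higher at 24 h than at 3 h (3.08%). The part of these differences in the keratin values was not tested.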

How the data were processed

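Cytosolic RNA of PC-3 cells was sequenced in 18 libraries. Per the submitters' processing notes, STAR, DESeq2 and the GRCh38.p13 build were used. No source used here gives their versions, the read counter, the annotation or the strand setting. The authors deposited 1 table of unnormalized counts for 28395 Gene IDs and, per the file headers, 3 tables of their own comparisons with log2 fold changes, p-values, a mean signal and a test score. Depth was 16400487 to 25862360 counts per library and limits precision for low genes such as KRT13 and KRT20.

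Groups follow the treatment and time in the labels. The 3 h columns were matched by time and letter, reading the treatment letter as at 12 h and 24 h. All 222, 1647 and 2612 genes called at 3 h, 12 h and 24 h had the same sign in the authors' tables. Per the series' design text, a replicate number within a time marks a shared pool. Deviations from group means correlated between the sheared and static library of a pool by 0.185 to 0.527 for the 3 h pools, by -0.321 to 0.450 for the 12 h pools and by 0.496 to 0.670 for the 24 h pools. Libraries of different pools correlated by -0.453 to 0.323, -0.589 to 0.449 and -0.393 to -0.120 at these times.

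Low genes were removed with filterByExpr (min.count 10, min.total.count 15). Counts were fitted with edgeR 4.0.16 in R 4.3.3 by legacy robust quasi-likelihood with TMM factors. One model held all 18 libraries, with the 9 pools as a block and a shear term for each time. Another held the 9 static libraries. Benjamini-Hochberg adjustment ran over all genes, at 0.05. The SE was derived from the F statistic, and log2 CPM used a prior count of 2. Levels per kb use the principal GENCODE 29 transcript (5237 bases for KRT15). No permutation test was made. An unpaired exact permutation of 3 against 3 libraries cannot give a p below 0.1, and this limit does not apply to the 9 pairs. The fits were also run on counts simulated from their own fitted levels and spread. Such counts follow the model by construction, so they cannot show whether it suits these libraries. Alternatives were DESeq2 1.42.0, RLE factors, no filter, no block, each time alone, and leaving out each pool or library. The keratins and all gene lists were chosen with earlier results of these data known. All 10 keratins are accounted for, and from other lists up to 4 members with the smallest p of a comparison could be named.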

Additional observations from a re-analysis of the deposited data

Results flagged for a closer look

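The shear effect, sheared over static on the log2 scale, differed between times for 4 keratins by the contrast in the edgeR fit. For KRT4 it was 2.64 higher at 24 h than at 3 h (adjusted p = 3.29e-05) and 2.09 higher at 24 h than at 12 h (0.00469). For KRT20 the difference of 24 h minus 3 h was -1.88 (0.0277). For KRT15 the differences were -1.01 for 12 h minus 3 h (0.0137) and -0.69 for 24 h minus 3 h (0.0431), and for KRT7 the difference was 0.62 for 12 h minus 3 h (0.0451). Leaving out single pools, the adjusted p reached 0.0307 at most for the KRT4 differences. It reached 0.149 for KRT20, 0.113 and 0.241 for KRT15 and 0.277 for KRT7, and the call was lost without any of 5 pools for KRT20, 3 and 6 pools for KRT15 and 6 pools for KRT7, of 9. Each difference with 3 h is also one between batch dates, and these cannot be told apart.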

How the results depend on the processing

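Without the replicate block, 1 keratin was called at 12 h and 2 at 24 h, 0 for the difference between 12 h and 3 h, 0 for 24 h and 12 h, and 1 for 24 h and 3 h; KRT17's difference between 24 h and 3 h turned to 0.57, uncalled in either fit. At 3 h the count was 1 without the filter on low counts, 1 with DESeq2 and 2 in the 6 libraries of the time alone, which gave 3 at 24 h. At 12 h, where the count was 5, it was 7 without the filter, 6 with DESeq2 and 6 in the 12 h libraries alone. With RLE factors it was 1 for 12 h minus 3 h. Leaving out single pools, the counts ranged from 0 to 1 at 3 h, 2 to 6 at 12 h, 4 to 7 at 24 h, 0 to 2 for 12 h minus 3 h and 1 to 3 for 24 h minus 3 h. With single libraries or pools left out, the static comparisons and the mean shear effect gave 6 to 8 calls, where the full fits gave 6 or 7. Without the replicate block the mean shear effect of KRT8 was not called (edgeR adjusted p = 0.0567). The cause of these changes was not tested.

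Directions turned when single libraries or pools were left out only where a keratin was uncalled. Log2 values ranged from -0.093 to 0.10 of KRT15 at 3 h, -0.21 to 0.45 of KRT13 at 12 h, -0.061 to 0.17 of KRT18 at 24 h, -0.71 to 0.042 of KRT13 for 12 h minus 3 h, -0.044 to 0.050 of KRT18 for 12 h minus 3 h, -0.49 to 1.04 of KRT17 for 24 h minus 12 h, -0.22 to 0.016 of KRT18 for 24 h minus 12 h, -0.14 to 0.25 of KRT19 for 24 h minus 12 h, -1.05 to 0.14 of KRT20 for 24 h minus 12 h, -0.22 to 0.14 of KRT8 for 24 h minus 3 h, -1.04 to 0.49 of KRT17 for 24 h minus 3 h, -0.21 to 0.023 of KRT18 for 24 h minus 3 h and -0.078 to 0.28 of KRT18 for static 24 h over 3 h. Of the alternative values of single keratins, 1094 kept direction and call, 61 lost and 18 gained a call, and 21 turned. RLE in place of TMM moved the median of all genes by at most 0.0187 on the log2 scale. KRT5 could not be tested, and folds of KRT13 and KRT20 rest on few counts.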
